A study of Sus scrofa and Rattus norvegicus with 8 samples.

Results

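Vascular mural cells wrap the endothelium, as smooth muscle around arterioles and venules and as pericytes around capillaries, and 9 genes that mark them were followed in the backfat of the pig. The contractile genes were ACTA2, TAGLN, MYH11, CNN1, DES and MYL9, and the pericyte genes were RGS5, PDGFRB and NOTCH3. Genes were taken by symbol from the pig table, in which 14857 of 25880 Ensembl gene IDs carried a symbol and 14844 of those were named nuclear genes. All 9 symbols were found, each with 1 ID. The 6 libraries came from the upper layer of the backfat (Back fat/Upper layer of backfat) of adult female Bama pigs 2 years of age, an untreated single group without a genetic change, so the genes were compared with each other and between libraries and no test between groups was possible. Total RNA of whole tissue was depleted of ribosomal RNA and sequenced with stranded libraries. In such bulk tissue, fewer cells of a type and less RNA per cell cannot be told apart.

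The contractile apparatus of smooth muscle is built on alpha actin and a smooth muscle myosin, whose force is switched on by phosphorylation of the regulatory light chain. Transgelin and calponin bind the actin filaments, and desmin forms the intermediate filaments that tie them together. Pericytes are recruited to growing vessels by PDGF-B from the endothelium through the receptor PDGFRB, are kept and matured through NOTCH3, and carry RGS5, a brake on G protein signalling. Mural cells of adipose tissue are also known as a niche of adipocyte progenitors, and several of these genes are shared with myofibroblasts, so none of the 9 marks a single cell type in whole fat.

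TPM, the abundance of transcripts after correction for their length, on a fixed total per library, held a different share of named nuclear genes in different libraries. That share was 24.1% to 26.3% in replicates 1, 2, 3 and 6, but 3.34% in replicate 4 and 4.73% in replicate 5. Mitochondrially encoded genes took 10.8% to 21.2% of the TPM in those 4 libraries, and 0.209% and 0.298% in replicates 4 and 5. Each gene was therefore described as deposited and also as rescaled TPM, in which the named nuclear genes of each library sum to 1000000. Replicates 4 and 5 stand apart on both scales, so levels, order, spread and the differences between classes are also given without them. TPM keep no read numbers, so the depth is unknown and no counting interval is given.

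The window from 250 bases before to 50 bases after the RefSeq gene start was searched for sites in Sscrofa11.1 and is described for 8 of the 9 genes. The CArG box, the site read by serum response factor (SRF), is built of CC, a run of A or T letters and GG, a pattern that matches on both strands at once. It was found in 300 of 19556 windows of protein-coding genes (1.53%). MYL9 held 1 such box, and no match lay in the windows of ACTA2, MYH11, CNN1, DES, RGS5, PDGFRB and NOTCH3. MYL9 lies at chr17:39788165-39795240 on the plus strand, with a box that begins 70 bases before the start. Its upstream stretch is printed because MYL9 was the only gene of the 8 with a box. It is 5′ to 3′, 200 bases long and ends at the base before the gene start, with the CArG box in capitals.
MYL9, chr17:39787965-39788164: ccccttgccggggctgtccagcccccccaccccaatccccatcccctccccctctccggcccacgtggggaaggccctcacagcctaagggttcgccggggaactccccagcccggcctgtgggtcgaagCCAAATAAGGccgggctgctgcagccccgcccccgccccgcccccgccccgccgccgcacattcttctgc
A match is a match of letters only. The site of RBPJ, the DNA-binding partner of Notch receptors, was searched as GTGGGAA on both strands and was found in 6.11% of the 19556 windows. Of the 8 genes, MYH11 held 1 match, which began at base 14 of the gene. No RBPJ match lay in the windows of PDGFRB or NOTCH3.

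TAGLN, which encodes transgelin (ENSSSCG00000015073, chr9:44561756-44567385, plus strand), had the highest mean of the 9 genes over 6 libraries. Its TPM as deposited was 59.4, 63.8, 76.9, 11.6, 12.7 and 69.1 in replicates 1 to 6, with a mean of 48.9 ± 29.1 (SD, n = 6). Rescaled, it was 238, 265, 294, 347, 269 and 262, with a mean of 279 ± 37.8 (SD, n = 6). After rescaling the 6 libraries thus lay within 1.46-fold of each other, with the highest value in replicate 4. Without replicates 4 and 5 the mean was 264.568 ± 23.0 (SD, n = 4), level with ACTA2 at 264.693.

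ACTA2, smooth muscle alpha actin (ENSSSCG00000010447, chr14:100868145-100886732, minus strand), varied much more. Its deposited TPM was 61.9, 110, 47.2, 2.48, 4.98 and 45.5, with a mean of 45.4 ± 39.9 (SD, n = 6). The rescaled values were 248, 458, 180, 74.2, 105 and 173, with a mean of 206 ± 137 (SD, n = 6). Replicate 2 was the highest on both scales, and replicates 4 and 5 were below each of the other 4. Without replicates 4 and 5 its SD was 133 (n = 4), so most of the spread remained.

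MYH11 encodes the smooth muscle myosin heavy chain (ENSSSCG00000000146). In rescaled TPM it was 160, 115, 68.4, 21.6, 41.2 and 74.3 in replicates 1 to 6, with a mean of 80.1 ± 50.5 (SD, n = 6). The highest library was replicate 1, not replicate 2 as for ACTA2. The symbol of this ID comes from the name table, the files give it no position, and the ID numbered just before it carries the name MYH9, a non-muscle myosin heavy chain. Whether the ID stands for the gene that RefSeq places at chr3:7002667-7143093 was not tested.

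MYL9 encodes the regulatory light chain of smooth muscle myosin (ENSSSCG00000036402). Rescaled, it was 51.8, 55.2, 49.1, 5.31, 5.26 and 55.4, with a mean of 37.0 ± 24.7 (SD, n = 6). Replicates 1, 2, 3 and 6 lay within 1.13-fold of each other, at 52.9 ± 3.01 (SD, n = 4), and replicates 4 and 5 were about equal to each other and far below them. As deposited MYL9 was 12.9, 13.3, 12.9 and 14.6 TPM in those 4 libraries, and 0.177 and 0.249 TPM in replicates 4 and 5, close to the detection line of 0.1 TPM and raised 29.9-fold and 21.1-fold by the rescaling, so the ratios that follow rest on very low values. The ratio of TAGLN to MYL9 was 4.58, 4.79, 5.98 and 4.73 in replicates 1, 2, 3 and 6, and 65.3 and 51.1 in replicates 4 and 5. A ratio within a library does not depend on the scaling, so the levels of TAGLN and MYL9 stood in one relation in 4 libraries and in another in replicates 4 and 5.

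CNN1, basic calponin (ENSSSCG00000013614, chr2:70183370-70190756, plus strand), was 52.3, 60.5, 17.9, 7.92, 20.9 and 21.0 rescaled TPM in replicates 1 to 6, with a mean of 30.1 ± 21.1 (SD, n = 6). Replicates 1 and 2 were high and replicate 4 was low, while replicate 5 lay among the others. DES, the muscle intermediate filament desmin (ENSSSCG00000020785, chr15:121428539-121435426, plus strand), was 52.4, 12.9, 14.1, 12.6, 30.4 and 25.6, with a mean of 24.7 ± 15.5 (SD, n = 6). Replicate 1 was the highest for DES, and replicate 4 was slightly below and replicate 5 inside the range of the other 4 libraries. As deposited, the mean TPM was 18.0 ± 15.1 for MYH11, 9.03 ± 6.85 for MYL9, 6.52 ± 6.03 for CNN1 and 4.75 ± 4.63 for DES (SD, n = 6 each). Replicates 4 and 5 were the lowest for each of these on that scale. The deposited mean of DES was 3.08 TPM without replicate 1.

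Among the pericyte genes RGS5 (ENSSSCG00000037821, chr4:87286953-87340816, plus strand) was the most abundant. It was 77.3, 47.5, 72.6, 3.31, 9.05 and 39.7 TPM as deposited, with a mean of 41.6 ± 31.0 (SD, n = 6). Rescaled, the values were 309, 197, 277, 99.1, 191 and 151, with a mean of 204 ± 78.1 (SD, n = 6). Replicate 4 was the lowest, and replicate 5 lay within the range of the other 4 libraries.

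PDGFRB, the receptor for PDGF-B (ENSSSCG00000022741, chr2:151155753-151192818, minus strand), was 128, 113, 125, 62.3, 60.2 and 140 rescaled TPM in replicates 1 to 6, with a mean of 105 ± 34.8 (SD, n = 6). NOTCH3, a receptor of mural cells (ENSSSCG00000025176, chr2:62364507-62402348, plus strand), was 39.1, 30.4, 35.3, 11.2, 10.7 and 30.0, with a mean of 26.1 ± 12.2 (SD, n = 6). Both receptors were close to even across replicates 1, 2, 3 and 6 and lower in replicates 4 and 5. Of the 36 pairs that can be made of the 9 genes, PDGFRB over NOTCH3 was the steadiest over all 6 libraries. Its log2 ratio was 2.10 ± 0.34 (SD, n = 6), with a range of 3.29-fold to 5.60-fold. That place rests on replicates 4 and 5. In replicates 1, 2, 3 and 6 this log2 ratio ran from 1.72 to 2.22. The log2 ratio of MYL9 to PDGFRB ran more narrowly there, from -1.34 to -1.04, but was -3.55 and -3.52 in replicates 4 and 5. Their mean TPM as deposited was 22.3 ± 15.7 and 5.86 ± 4.29 (SD, n = 6 each).

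**Figure D1:**
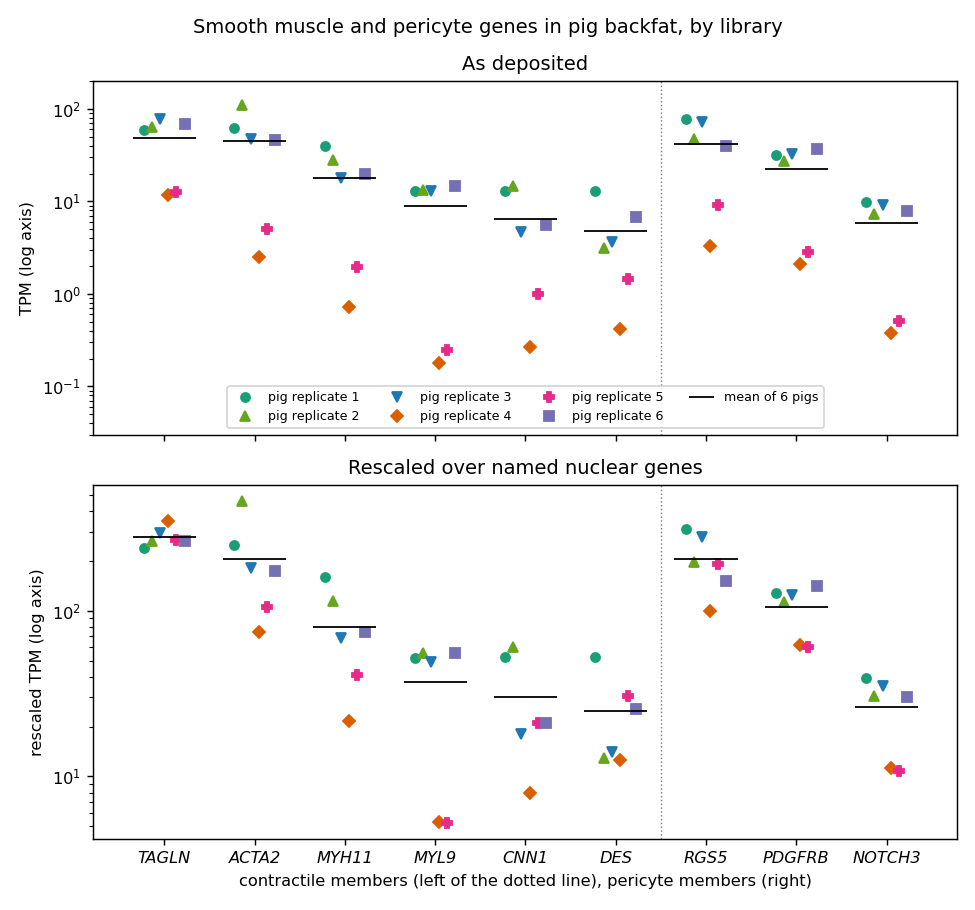
TPM as deposited (upper panel) and rescaled over named nuclear genes (lower panel) of the 9 genes on log axes, with 1 symbol per pig replicate and a bar at the mean of 6. As deposited, replicates 4 and 5 are the lowest symbols for each gene, while after rescaling TAGLN lies between 238 and 347 in every library and MYL9 at 5.31 and 5.26 in replicates 4 and 5 against 49.1 to 55.4 in the others.

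The median level was 58.6 rescaled TPM over the 6 contractile genes and 105 over the 3 pericyte genes, against 21.2 over the 13352 named nuclear genes with over 0.1 TPM in at least 1 library. Ranked within each library among the 14844 named nuclear genes, TAGLN stayed between percentiles 95.8 and 97.5. RGS5 ranged from percentile 89.0 to 97.0, ACTA2 from 85.0 to 98.2, PDGFRB from 82.4 to 90.2 and MYH11 from 62.0 to 92.2. The lower genes sat nearer to the middle of the ranking, with MYL9 from 38.0 to 74.5, CNN1 from 43.7 to 76.4, DES from 43.0 to 73.6 and NOTCH3 from 49.2 to 66.9. Ranks do not depend on a factor per library.

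By mean rescaled TPM the order was TAGLN, ACTA2, RGS5, PDGFRB, MYH11, MYL9, CNN1, NOTCH3 and DES. A neighbour in this order was taken to differ beyond the spread where the mean log2 ratio over 6 libraries exceeded its SD. RGS5 exceeded PDGFRB in that sense, by 0.94 ± 0.54 on the log2 scale and in 6 of 6 libraries, and MYH11 exceeded MYL9 by 1.43 ± 0.98, also in 6 of 6. The other 6 neighbour pairs did not differ beyond their spread. TAGLN was above ACTA2 by 0.67 ± 1.05 and in 4 of 6 libraries, for instance, and PDGFRB was above MYH11 by 0.59 ± 0.67 in 4 of 6. ACTA2 had the higher mean than RGS5 but was above it in 2 of 6 libraries, and its mean log2 ratio to RGS5 was -0.13 ± 0.75. Between MYL9, CNN1, NOTCH3 and DES the log2 ratios of neighbours were 0.02 ± 1.30, 0.06 ± 0.84 and 0.12 ± 1.07 (SD, n = 6). They were, without replicates 4 and 5, 0.68 ± 0.87, -0.02 ± 0.89 and 0.59 ± 0.84 (SD, n = 4), with means of 52.9, 37.9, 33.7 and 26.2 rescaled TPM. In those 4 libraries TAGLN and ACTA2 were level, with ACTA2 above in 2 of 4. The rest of the order stood as before, with RGS5, PDGFRB and MYH11 at means of 233, 127 and 105 rescaled TPM. The pairs beyond their spread were again RGS5 over PDGFRB (0.83 ± 0.52) and MYH11 over MYL9 (0.90 ± 0.57).

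The spread between libraries was given as the coefficient of variation (CV, the SD over the mean) of rescaled TPM. Over the 8866 named nuclear genes with a mean of at least 10 the median CV was 0.282, and over the 9 genes it was 0.627. Contractile genes had a median of 0.648, with CNN1 at 0.701, MYL9 at 0.667, ACTA2 at 0.666, MYH11 at 0.631 and DES at 0.627, which are among the more variable genes of the table, as percentile 96.4 for ACTA2 shows. TAGLN was the exception with a CV of 0.135, at percentile 12.1. Its low CV depended on the scaling, at 0.153 under quantile normalization but 0.306 under median-centring and 0.594 as deposited. Pericyte genes had a median of 0.383, with RGS5 at 0.383, PDGFRB at 0.332 and NOTCH3 at 0.467.

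Without replicates 4 and 5 the medians of the contractile and pericyte genes parted further. The classes overlapped, since the contractile genes MYL9 and TAGLN then had the lowest CV of the 9 genes. The median CV was then 0.455 over contractile genes and 0.128 over pericyte genes, beside 0.161 over all 8866. DES kept a CV of 0.700 (percentile 98.8), CNN1 of 0.570, ACTA2 of 0.503 and MYH11 of 0.408. MYL9 dropped to 0.0568 (percentile 5.23), TAGLN was at 0.0870 and PDGFRB at 0.0872. RGS5, at 0.311, was the most variable of the pericyte genes, with replicate 1 at 2.05 times replicate 6.

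Replicates 4 and 5 were then set against the other 4 libraries gene by gene. As deposited, all 9 genes were below each of the other 4 libraries in both, which held for 98.2% of the 12130 named nuclear genes whose mean rescaled TPM reached 1, and the opposite held for 0 of the 9 and 0.0742% of those genes. After rescaling, 5 of the 9 were below in both (ACTA2, MYH11, MYL9, PDGFRB and NOTCH3), beside 50.1% of all genes. None was above in both, beside 10.4% of all genes. The share of the 9 genes was therefore near that of all genes. On the same scale the median gene was lower in replicates 4 and 5 by a log2 difference of -0.50. The same 5 genes were below under median-centring, where 28.7% of all genes were below, and under quantile normalization, where 25.8% were. TAGLN was above in both replicates under median-centring, as were 27.2% of all genes, and overlapped the other libraries after rescaling and quantile normalization.

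In size, the mean of replicates 4 and 5 was 0.0999 of the mean of the other 4 libraries for MYL9, at percentile 0.346 among the 12130 genes. The same ratio was 0.300 for MYH11, 0.326 for NOTCH3, 0.339 for ACTA2 and 0.380 for CNN1, with percentiles from 7.25 to 14.2. PDGFRB had 0.484, RGS5 0.622 and DES 0.820. TAGLN was at 1.16, percentile 84.5. The contractile genes thus held both the lowest and the highest of these ratios.

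**Figure D2:**
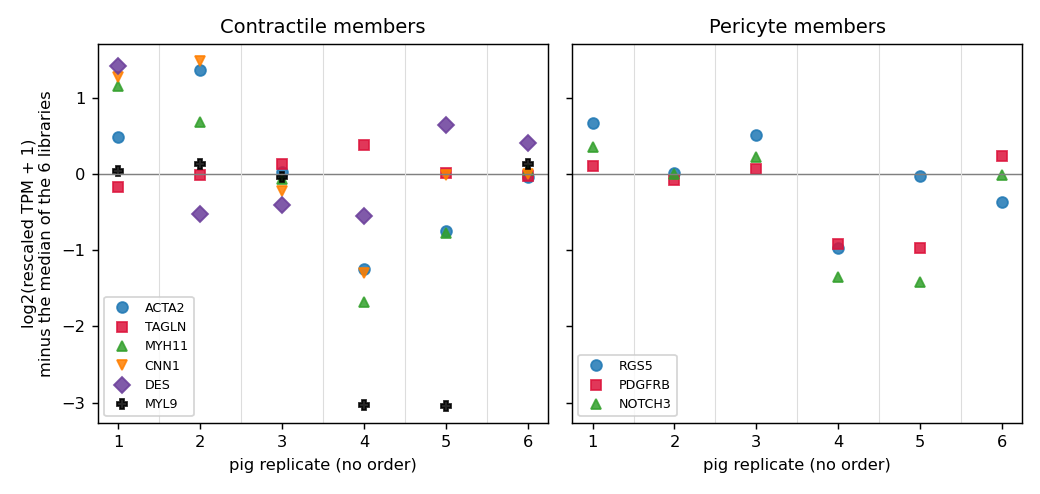
log2(rescaled TPM + 1) of each gene minus its median over the 6 libraries, by pig replicate, for contractile genes (left) and pericyte genes (right). MYL9 stands about 3 log2 units below its median in replicates 4 and 5, and TAGLN stays near 0 in every library. With MYL9 the contractile genes spread most in replicates 4 (-3.03 to 0.38) and 5 (-3.04 to 0.65). MYL9 alone sets the lower end in both. The next lowest gene there, MYH11, stands at -1.68 and -0.78, and the contractile genes run from -0.52 to 1.48 in replicate 2.

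Transcript length and GC content moved with this difference over all genes, so both are given for the 9. Over 11294 genes with a RefSeq transcript (93.1% of those examined), the median log2 difference of replicates 4 and 5 from the others was -0.08 in the shortest and -0.82 in the longest of 10 classes of length, and -0.29 in the lowest of 10 classes of GC content, -0.69 in classes 7 and 8, -0.66 in class 9 and -0.54 in class 10. MYL9 has a transcript of 1271 bases in 4 exons with 63.2% GC, and TAGLN one of 1328 bases in 5 exons with 57.8% GC. The gene with the lowest ratio and the gene with the highest were thus both among the shortest transcripts. ACTA2 (1402 bases), CNN1 (1456), RGS5 (2047) and DES (2243) were also below the median length of 3590 bases, and PDGFRB (5597), MYH11 (6704) and NOTCH3 (8093) were above it. RGS5 had the lowest GC content of the 9 at 38.5%, and PDGFRB the highest at 63.9%. The part of length and GC content in the levels of these genes was not tested.

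Contractile and pericyte genes were next compared within each library, as the mean log2 rescaled TPM over the 6 contractile genes minus that over the 3 pericyte genes. A factor per library cancels in this difference. It was -0.14, 0.07, -0.84, -0.67, -0.33 and -0.33 in replicates 1 to 6, with a mean of -0.38 ± 0.33 (SD, n = 6). Contractile genes were on average the lower in 5 of 6 libraries. Replicate 2, the library with the most ACTA2 and CNN1, was the exception, and replicate 3 had the most negative value. Without replicates 4 and 5 the mean was -0.31 ± 0.39 (SD, n = 4).

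The sign rests on RGS5, since without it the mean was 0.29 ± 0.37 (SD, n = 6). Without MYH11, whose ID is uncertain, it was -0.41. Levels were also added up over each class, which holds 6 contractile but 3 pericyte genes. Summed rescaled TPM of the contractile genes was 802, 966, 624, 468, 471 and 611 in replicates 1 to 6, and that of the pericyte genes was 477, 341, 437, 173, 262 and 321. Per gene, the contractile mean was 0.841, 1.42, 0.713, 1.36, 0.899 and 0.953 of the pericyte mean in replicates 1 to 6, and so the lower in 4 of 6 libraries. Over the 6 libraries these means per gene were 109.5 ± 32.5 and 111.7 ± 37.2 rescaled TPM (SD, n = 6), which did not differ beyond their spread. TAGLN made up 27.4% to 47.1% of the contractile sum in replicates 1, 2, 3 and 6, but 74.0% in replicate 4 and 57.0% in replicate 5. ACTA2 made up 47.4% in replicate 2 and 15.8% in replicate 4.

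**Figure D3:**
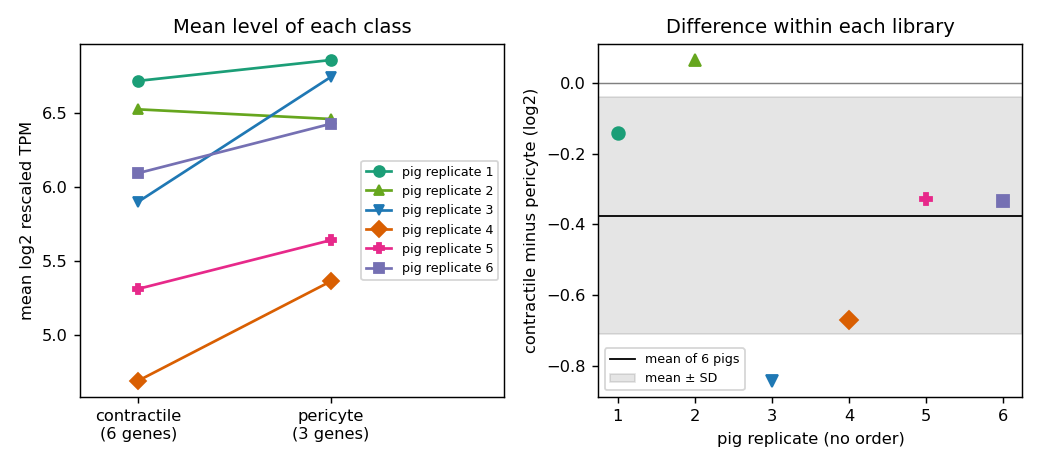
Left, mean log2 rescaled TPM of the 6 contractile and 3 pericyte genes, with a line per pig replicate. Right, the contractile mean minus the pericyte mean in each library, with the mean of 6 and the band of ± SD; 5 of 6 values lie below 0, from -0.14 to -0.84, and replicate 2 lies at 0.07.

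Other genes of the contractile apparatus and its control were examined as a list of 31, of which 26 had a named ID. Among the most abundant were CALD1, the actin and myosin binding caldesmon, at a mean of 1312 ± 284 rescaled TPM, TPM1, a tropomyosin, at 681 ± 343, ITGA7, an integrin chain that binds laminin, at 286 ± 83.9, and CNN3, acidic calponin, at 215 ± 55.1 (SD, n = 6 each). In replicates 4 and 5, 20 of the 26 genes were below the other 4 libraries in both and 0 were above, beside 50.1% and 10.4% of all genes. CALD1, ITGA7 and CNN3 were among the 6 that overlapped. The median level of the list was 94.5 rescaled TPM.

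The list of other pericyte and microvascular genes had 28 members, all with a named ID, and a median of 26.5 rescaled TPM. EBF1, a transcription factor that adipocytes also use, was the highest at 393 ± 120.2 (SD, n = 6). AGTR1, the angiotensin II receptor, followed at 188 ± 79.5, ANPEP, the surface peptidase aminopeptidase N, at 179 ± 123, GUCY1B1, a subunit of the nitric oxide receptor guanylate cyclase, at 72.9 ± 18.8, and MFGE8, a secreted glycoprotein, at 72.0 ± 34.9. FOXF2, a transcription factor of brain pericytes, was under 0.1 TPM in the mean and listed at 0 in replicates 2, 4, 5 and 6. Of the 27 genes with a mean of at least 1, 15 were below in both replicates 4 and 5 (beside 50.1% of all genes) and 2 were above (beside 10.4%), namely GUCY1B1 and COX4I2. COX4I2, an isoform of a cytochrome oxidase subunit and not named by the rule but for this count, was 49.2 and 95.7 rescaled TPM there against 18.4 to 37.3.

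The PDGF and Notch pathways, to which the receptors PDGFRB and NOTCH3 belong, were examined as a list of 19 genes, all with a named ID. Not every gene of the list is a partner of these receptors. The highest were RBPJ, which carries the Notch signal to DNA, at 199.8 ± 78.7 rescaled TPM, NOTCH2, a receptor, at 163 ± 49.4, PDGFRA, the PDGF receptor of fibroblasts and progenitors, at 149 ± 21.8, and the ligands PDGFA at 66.7 ± 17.0 and PDGFD at 66.4 ± 12.7 (SD, n = 6 each). In this list 10 genes were below in both replicates 4 and 5, beside 50.1% of all genes, and 1, the Notch ligand DLL1, was above, beside 10.4%.

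The regulators of smooth muscle transcription, with 9 of 10 listed genes named, had a median of 43.2 rescaled TPM. TEAD1, KLF4, MEF2C, MRTFB and FOXO4 were the highest, at 193 ± 92.0, 103 ± 29.7, 74.7 ± 16.9, 44.7 ± 25.3 and 43.2 ± 6.65 (SD, n = 6 each). TEAD1 and MEF2C are DNA-binding factors, MRTFB is a coactivator of SRF, and KLF4 and FOXO4 are known as repressors of the contractile genes. Of the 9, 8 were below in both replicates 4 and 5, beside 50.1% of all genes, and FOXO4 overlapped.

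Related genes matter for these levels, because reads of near-identical coding sequence can be split between them and how kallisto shared them here is not shown by the files. The cytoplasmic actins ACTB and ACTG1 were 2382 ± 1189 and 786 ± 438 rescaled TPM, far above ACTA2. ACTG2, the enteric smooth muscle actin, was 26.2 ± 18.1, and the sarcomeric actins ACTA1 and ACTC1 were 1.84 ± 2.27 and 0.207 ± 0.269 (SD, n = 6 each). ACTB, ACTG1, ACTA2, ACTG2 and ACTA1 were each below in both replicates 4 and 5, as were 50.1% of all genes. For the light chains the 2 related genes did not move alike, since MYL12A, a non-muscle form, was 689, 752, 851, 635, 1041 and 772 while the mean of MYL9 in replicates 4 and 5 was 0.0999 of that elsewhere. MYL12B had no named ID.

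Among myosin heavy chains, MYH9 was 668, 785, 569, 255, 223 and 723 rescaled TPM and MYH14, also a non-muscle chain, was 42.2 ± 12.7 (SD, n = 6). MYH10 had no named ID. Of the transgelins, TAGLN3, a neuronal form, was at 1.16 ± 1.08 and TAGLN2 had no named ID. Of the calponins, CNN3 and CNN2 were at 215 ± 55.1 and 38.7 ± 16.0, so CNN1 was the lowest of the family in the mean. NOTCH3 was below NOTCH2 and NOTCH4 (31.1 ± 16.2) and above NOTCH1 (21.1 ± 11.3), and PDGFRB was below PDGFRA in the mean.

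Markers of other cell types were summed in each library, to give the makeup in which the 9 genes were read. Adipocyte markers (9 of 10 named) summed to 20284 to 36964 rescaled TPM, led by FABP4 and ADIPOQ at 18679 and 2992. Stromal markers (9 of 10) summed to 9981 to 19765 in replicates 1, 2, 3 and 6 and to 7499 and 9231 in replicates 4 and 5, led by DCN at 6179 and COL1A2 at 2512. Replicate 1, the highest for MYH11, DES, RGS5 and NOTCH3, also had the largest stromal sum, close to its adipocyte sum of 20823. Macrophage markers (7 of 8), led by MRC1 and CD163, summed to 591 to 757 in the same 4 libraries and to 484 and 316 in replicates 4 and 5.

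Endothelial markers (10 of 12 named, led by PECAM1 at 714 and CDH5 at 140) summed to 1432, 1778, 1386, 851, 1019 and 1499 rescaled TPM in replicates 1 to 6, and 8 of the 10 were below in both replicates 4 and 5, beside 50.1% of all genes. Relative to the mean log2 level of these 10 genes, the contractile genes stood at -0.32 ± 0.41 and the pericyte genes at 0.05 ± 0.37 (SD, n = 6 each). The contractile difference ran from -0.92 in replicate 4 to 0.35 in replicate 1, and the pericyte difference from -0.36 in replicate 2 to 0.49 in replicate 3. The means without replicates 4 and 5 were -0.14 ± 0.33 and 0.17 ± 0.41 (SD, n = 4). The contractile mean was -0.20 without replicate 4 alone, and the pericyte mean was -0.03 without replicate 1, -0.04 without replicate 3 and 0.11 and 0.14 without replicates 4 and 2, so it had no stable sign. The part of vessel content in the levels of the 9 genes was not tested.

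DES is also made by striated muscle. Skeletal muscle markers (7 of 13 named) summed to 12.8, 21.1, 6.38, 5.07, 3.86 and 7.51 rescaled TPM, with MYL1 at a mean of 2.77 and ACTA1 at 1.84. The listed myosin heavy chains MYH1, MYH2, MYH4 and MYH7, and MYLPF and MB, were not among the 7, so the sum leaves them out. Of the 7, TNNT3, TNNT1 and TNNC2 were listed at 0 in at least 1 library. Heart muscle markers (4 of 6 named, led by TNNT2 and MYBPC3) summed to 0.645 to 8.10, with TNNT2 and ACTC1 each listed at 0 in 1 library. DES was 12.9 rescaled TPM in replicate 2, which had the largest skeletal muscle sum, and 52.4 in replicate 1, which had the next largest. The part of striated muscle in the level of DES was not tested.

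**Figure D4:**
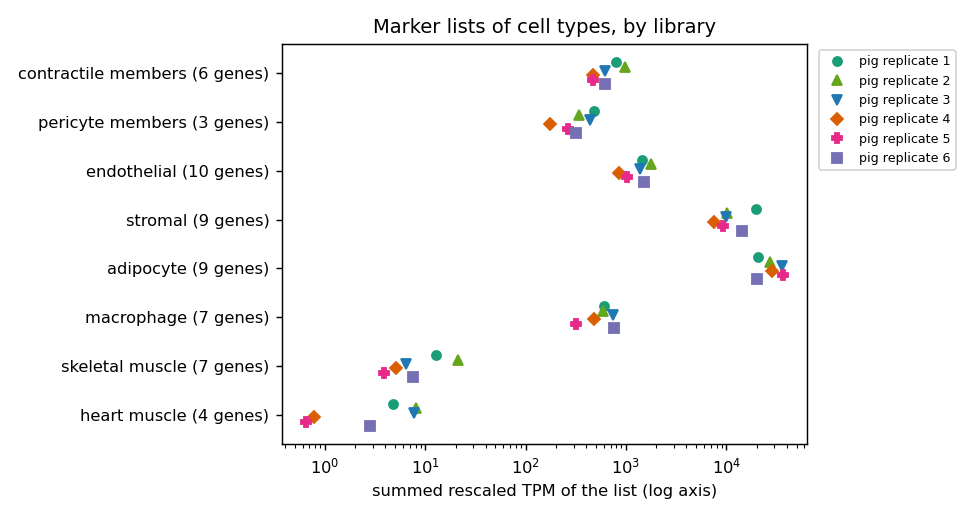
Summed rescaled TPM of each marker list on a log axis, with 1 symbol per pig replicate and the number of genes found in brackets. The contractile and pericyte sums lie between 173 and 966, in each library below the endothelial sum (851 to 1778 over the 6). They lie far above the sums of the named skeletal and heart muscle markers. The contractile, pericyte and endothelial sums cover 6, 3 and 10 genes. By mean log2 level relative to the endothelial genes, contractile genes stood at -0.32 ± 0.41 and pericyte genes at 0.05 ± 0.37 (SD, n = 6 each).

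The genes with the profile nearest to the mean of the contractile genes were found among 8857 other named nuclear genes that reached a mean of 10 rescaled TPM, by the root mean square difference of log2(rescaled TPM + 1) from its median over the 6 libraries. They were LDB2 (0.102), COG7 (0.116), PTER (0.116), CSPG4 (0.138) and RGN (0.144). CSPG4 is the pericyte antigen NG2 and stands in the list of other pericyte genes. The nearest to the mean of the pericyte genes were F2RL2 (0.0526), MBOAT7 (0.0849), MAGED1 (0.0867), NAA60 (0.0885) and GGA1 (0.0935). With 6 libraries, of which replicates 4 and 5 are apart, such likeness is a description only.

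Measured in the same way, a gene was not always nearer to its own class. MYH11 (0.328), ACTA2 (0.439) and CNN1 (0.639) were nearer to the contractile mean than to the pericyte mean. TAGLN was at 0.998 from the contractile and 0.718 from the pericyte mean, DES at 0.976 and 0.855, and MYL9 at 1.51 and 1.23. PDGFRB (0.304) and NOTCH3 (0.411) were nearer to the pericyte mean, and RGS5 was nearer to the contractile mean (0.465) than to its own (0.570). A gene was left out of the mean of its own class. Without replicates 4 and 5 RGS5 was nearer to the pericyte mean (0.367) than to the contractile mean (0.465), and TAGLN, DES and MYL9 were again nearer to the pericyte mean.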

How the data were processed

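TPM per gene were computed by the authors with kallisto 0.43.0 and deposited as 1 table for pig (Sscrofa11.1, per the study's methods). Symbols came from a table of pig Ensembl IDs, and positions, exons and sequences from RefSeq on Sscrofa11.1, matched by symbol. All 9 genes matched. The 2 rat libraries were not used here, since their IDs carried no names.

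Each library was rescaled so that its 14844 named nuclear genes summed to 1000000. Levels, CV, ranks, log2 ratios and profiles were computed with Python 3.11.15, numpy 2.4.6 and pandas 2.3.3. The scalings, the profiles and the rule for below or above in replicates 4 and 5 were tested on simulated data. The CV, ranks and log2 ratios were not. A gene was below (or above) in replicates 4 and 5 where both lay outside the range of the other 4 libraries on that side. Such counts cover genes whose mean rescaled TPM reached 1. No test was run and no p-value is given.

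The genes and lists were chosen with earlier results of these data known. Genes named are the 9, the 5 highest of each wider list and any under 0.1 TPM, all related genes, the 2 highest of each cell type list and the 5 nearest profiles. A gene of a wider list and a promoter sequence are not reported here. The heavy chains related to MYH11 were listed after the data were seen. Alternatives were other scalings, pseudocounts of 1 and 0.1, the median over genes, and leaving out genes or libraries. Leaving out MYH11, MYL9 or TAGLN was added after the data were seen. So was leaving out libraries for the order, the profiles and the endothelial differences, and leaving out replicates 4 and 5 for the rescaled levels and the CV.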

Additional observations from a re-analysis of the deposited data

How the results depend on the processing

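The difference between contractile and pericyte genes was -0.36 and -0.37 with pseudocounts of 1 and 0.1. It ran from -0.46 to -0.28 without each library in turn. Given its mean and SD, leaving out 1 of 6 libraries could neither turn its sign nor move it by 1 SD. The difference was -0.97 with the median over genes in place of the mean and -0.82 without TAGLN, and it turned to 0.29 without RGS5. It was -0.08 without DES and -0.12 without MYL9. The number of genes below in both replicates 4 and 5 was 5 after rescaling (beside 50.1% of all genes), median-centring (28.7%) and quantile normalization (25.8%). It was 9 as deposited (beside 98.2% of all genes) and also 9 without mitochondrially encoded and ribosomal protein genes (98.1%). The cause of these differences was not tested. Leaving out 1 of 6 libraries cannot move a mean by 1 SD, so that rule says nothing about how far a level rests on a single library. The deposited mean of DES went from 4.75 to 3.08 TPM without replicate 1. Rescaling raised the levels of all 9 genes. The CV moved by over 1.5 times in 2 of 54 cases without a single library, for ACTA2 without replicate 2 and for TAGLN without replicate 4. It moved so in 5 of 9 genes as deposited or without replicates 4 and 5. Under median-centring it moved so in 2 of 9, to 0.197 for PDGFRB and 0.306 for TAGLN. No paired analysis was possible because the libraries form a single group and no result comes from a test. The depth cannot be read from TPM, so the counting error of the low values of MYL9 in replicates 4 and 5 is unknown.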
